A study of Mus musculus with 6 samples.

Results

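The genes described here are 10 genes of the Neurog3, Sox9 and Notch axis of the pancreas, taken by symbol from a table of 46932 usable gene symbols: Neurog3, Sox9, Notch1, Notch2, Dll1, Dll4, Jag1, Hes1, Hes6 and Hey1. All 10 were in the table, and 9 of them were among the 13022 genes tested. Hey1 was below the filter of 1 RPKM in at least 2 of the 6 libraries. RNA was sequenced from 3 cell populations that had been sorted from islets of adult mice, with 2 libraries each. Before the sort, the islets of all groups were kept overnight in RPMI medium with 5.5 mM glucose and 10% serum and were taken apart with 0.25% trypsin. The double-positive cells carried both the mCherry and the YFP label and are named delta transdifferentiated in the labels. The beta cells were mCherry-positive and the delta cells were YFP-positive. All animals carried the same 3 transgenic alleles, mIns1-H2b-mCherry (a nuclear reporter under an Ins1 promoter), Sst-cre and a floxed YFP allele, so the controls share every allele with the double-positive cells. Cre under the somatostatin promoter labels delta cells and whatever descends from them, and also any other cell in which that promoter was ever active. In each group 1 library came from a male pool and 1 from a female pool, each of 10 to 12 animals, so sex and pool cannot be told apart. The design text in one place gives alpha cells as the origin of the double-positive cells, which goes against the sample labels and against the Cre driver, both of which give delta cells. Nothing in the labels describes replicate cultures beyond these pools. The p-values thus rest on how far the male and the female library of a group lie apart, pooled over the 3 groups. In the main fit this spread is also moderated toward a trend over all tested genes.

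In the developing pancreas, Notch receptors on one cell are activated by Delta-like or Jagged ligands on its neighbour, and the receptor is then cleaved and its intracellular part joins the DNA-binding protein Rbpj to switch on repressors of the Hes and Hey families. Hes1 represses Neurog3, the basic helix-loop-helix factor that commits a progenitor to the endocrine fate, while Sox9 marks progenitors and adult duct cells and helps to start Neurog3 expression. Neurog3 is best known as a transient factor of endocrine progenitors, and low levels have also been described in adult islet cells.

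RefSeq promoter windows on GRCm38.p6, from 250 bases before to 50 bases after the start of transcription, were at hand for 7 of the 10 genes, in 9 windows. Sox9, Hes1 and Hey1 were not among them. The windows of Neurog3, Notch2 and Hes6 are shown. Of the genes with a window, Neurog3 and Notch2 were called in all 3 comparisons, and Hes6 alone was called higher in beta than in delta cells. The letters in capitals mark matches to the E box CANNTG, bound by basic helix-loop-helix factors, or to the N box CACNAG, bound by Hes repressors, each searched on both strands. The core TGGGAA bound by Rbpj was searched as well. The Neurog3 window is chr10:62132840-62133139 on the plus strand, the Notch2 window is chr3:98013288-98013587 on the plus strand, and the Hes6 window, the first of 2 that RefSeq gives for this gene, is chr1:91413989-91414288 on the minus strand.
Neurog3: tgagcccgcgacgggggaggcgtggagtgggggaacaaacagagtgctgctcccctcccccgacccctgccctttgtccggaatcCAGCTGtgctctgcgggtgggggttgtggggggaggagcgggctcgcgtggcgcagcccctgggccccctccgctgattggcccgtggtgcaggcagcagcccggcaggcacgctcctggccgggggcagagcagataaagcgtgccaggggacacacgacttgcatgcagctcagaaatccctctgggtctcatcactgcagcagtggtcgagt
Notch2: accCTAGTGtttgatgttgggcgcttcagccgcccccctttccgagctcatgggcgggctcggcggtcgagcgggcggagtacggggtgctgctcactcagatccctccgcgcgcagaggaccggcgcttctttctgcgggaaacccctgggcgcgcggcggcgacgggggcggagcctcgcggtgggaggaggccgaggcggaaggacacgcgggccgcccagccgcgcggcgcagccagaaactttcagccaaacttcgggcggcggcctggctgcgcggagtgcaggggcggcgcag
Hes6: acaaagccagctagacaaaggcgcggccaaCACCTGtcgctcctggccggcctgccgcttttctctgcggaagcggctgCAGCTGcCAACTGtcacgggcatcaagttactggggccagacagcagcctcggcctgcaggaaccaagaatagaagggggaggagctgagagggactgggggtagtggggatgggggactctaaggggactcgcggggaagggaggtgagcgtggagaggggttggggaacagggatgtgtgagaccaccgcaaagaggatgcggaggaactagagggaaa
The Neurog3 window held 1 E box, at bases -165 to -160 from the start, and no N box. The Notch2 window held 1 N box, at -247 to -242, and the Hes6 window shown held 3 E boxes, at -220 to -215, -171 to -166 and -164 to -159. The other Hes6 window, which is not shown, held 2 N boxes, at -237 to -232 and 16 to 21, and 1 E box, at -150 to -145. The Rbpj core was in 0 of the 9 windows of these genes, against 25.6% of 32851 promoter windows of the same length. The N box was in 5 of the 9 windows, against 42.5% of all windows, and the E box in 6 of the 9, against 72.3%. Such matches describe letters and say nothing of binding.

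The RPKM denominators, recovered from the steps in low values, were 12.5 and 10.9 M (10 to the power 6) reads in the double-positive libraries, 21.6 and 20.4 M in the beta libraries and 17.0 and 15.7 M in the delta libraries. Fold changes are differences of log2(RPKM + 1), which understate the change of low genes, and adjusted p-values are from limma with Benjamini-Hochberg adjustment over all 13022 genes. The beta libraries sit lower for most genes. Across the 13022 genes the median log2 fold change was -0.03 for double-positive against delta cells, 0.32 for double-positive against beta cells and -0.36 for beta against delta cells. Median-of-ratios scaling brought these medians to -0.0056, -0.0017 and -0.018, and the share of calls that were higher became 48% in place of 43.5%, 51.6% in place of 83.4% and 48.4% in place of 20.2%. The labels of the populations held against their markers: the 7 beta markers summed to 86400 and 94400 RPKM in double-positive, 310000 and 222000 in beta and 1440 and 1770 in delta libraries. The 5 delta markers summed to 13500 and 13600 RPKM in double-positive, 79.7 and 96.6 in beta and 51800 and 60700 in delta libraries. Markers of other islet cells were not spread evenly: the 6 alpha markers summed to 1800 and 2590 RPKM in double-positive, 461 and 644 in beta and 15100 and 16500 in delta libraries, and the pair of PP markers, Ppy and Pyy, to 11900 and 12000, 802 and 558, and 36500 and 37100 RPKM in the same order of groups. The male double-positive and the male beta library also stood apart in acinar transcripts, with sums over 12 genes of 2410 and 191 RPKM in double-positive, 8880 and 369 in beta and 846 and 646 in delta libraries, the male library first in each group. Immune markers summed to 47.4 and 55.0 RPKM in double-positive, 192 and 207 RPKM in beta and 76.9 and 91.4 RPKM in delta libraries. C1qa made up most of the delta sums, at 59.3 and 76.9 RPKM, while Lyz2 and Adgre1 were listed at 0 in both delta libraries. Of the 9 tested immune markers, 8 were called higher and 1 lower in beta than in delta cells, and 8 lower in double-positive than in beta cells. Mesenchymal markers summed to 0.691 RPKM or less in every library.

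On the log2(RPKM + 1) scale, Neurog3 had the widest differences of the 9 tested genes. It was intermediate in double-positive cells, close to its detection limit in beta cells and highest in delta cells. Of the 9 tested genes, 3 were called lower in double-positive than in delta cells (33.3%): Neurog3, Sox9 and the receptor gene Notch2. None was called higher, and none passed an unadjusted p of 0.05 in that direction in limma. Over all tested genes 12.7% were called in this comparison, 7.20% lower and 5.53% higher. Against beta cells, 5 of the 9 were called (55.6%), with Neurog3, Sox9, Notch2 and the ligand gene Dll4 higher and Hes6 lower in double-positive cells. The background there was 51.0%, with 42.5% higher and 8.46% lower, so the members' share lies near that of all genes. Between beta and delta cells, 8 of the 9 were called (88.9%), 7 lower in beta and 1 higher, against a background of 57.9%, with 46.3% lower and 11.7% higher. The median log2 fold change of the 9 genes was -0.49 in double-positive against delta, 0.31 in double-positive against beta and -0.78 in beta against delta cells. Notch2 and Jag1 reached the filter of 1 RPKM in the delta libraries alone. Both were thus tested only because they were high in delta cells, which partly fixes the direction of the counts and medians against delta cells. The comparisons share libraries, so they are not independent of each other. In bulk RNA, fewer cells of a type and less RNA per cell cannot be told apart.

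**Figure D1:**
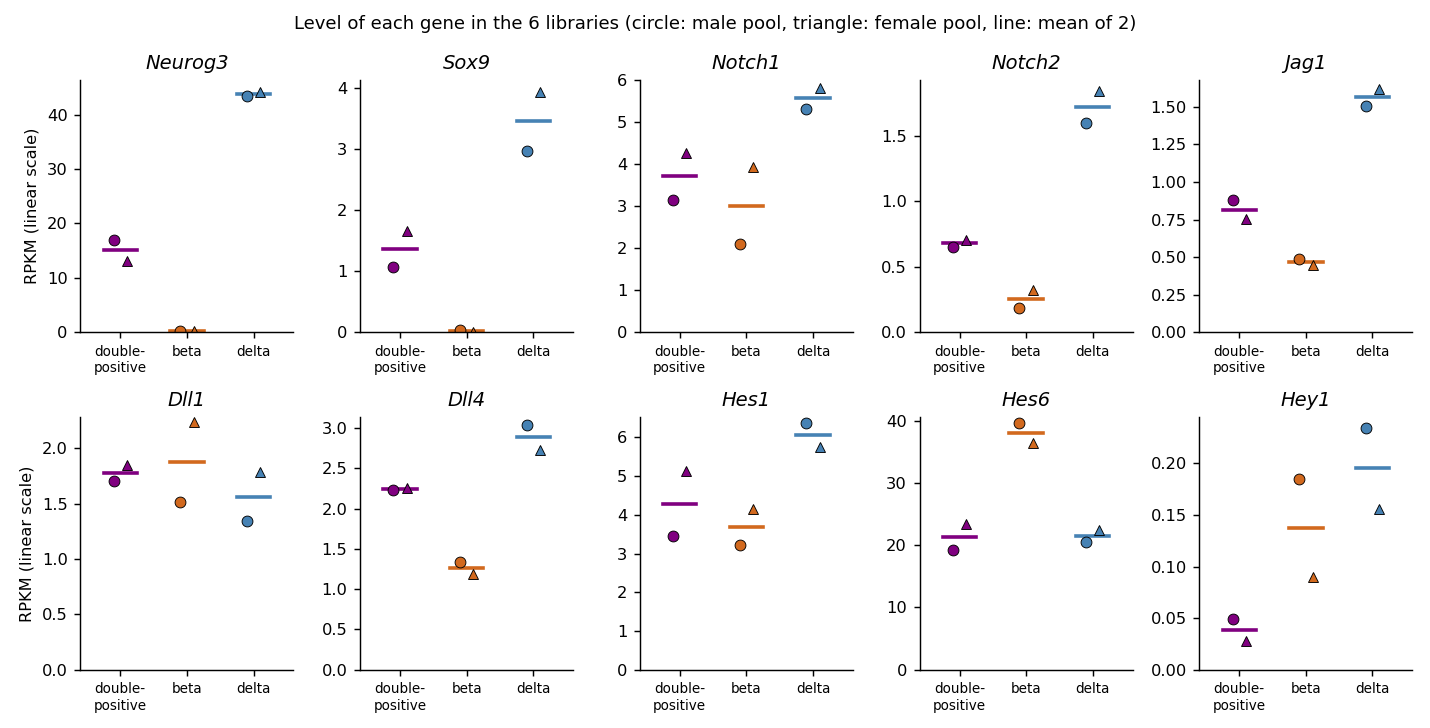
Level of each of the 10 genes in RPKM on a linear axis, in double-positive, beta and delta libraries, with a circle for the male pool, a triangle for the female pool and a line at the mean of the 2. For Neurog3, Sox9, Notch2, Jag1 and Dll4 the double-positive libraries lie above the beta and below the delta libraries without overlap, whereas Hes6 is highest in beta cells at 39.6 and 36.4 RPKM. How many of all tested genes have the order beta, double-positive, delta was not counted, and the beta libraries sit lower for most genes.

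Neurog3 (chromosome 10, bases 62133090 to 62134763 on the plus strand, GRCm38) had 17.0 and 13.0 RPKM in double-positive, 0.301 and 0.190 RPKM in beta and 43.4 and 44.2 RPKM in delta libraries, each pair given as male then female pool. The 3 groups did not overlap, and the levels stood in the same order in both pools. Double-positive cells averaged 15.0 ± 2.83 RPKM, beta cells 0.246 ± 0.0782 RPKM and delta cells 43.8 ± 0.559 RPKM (SD, n = 2 each). The double-positive mean was thus 34.4% of the delta mean. The log2 fold change was -1.49 ± 0.15 (SE) in double-positive against delta cells (adjusted p = 0.0019, limma), 3.68 ± 0.15 in double-positive against beta cells (adjusted p = 5.13e-05) and -5.17 ± 0.15 in beta against delta cells (adjusted p = 3.93e-06). Every alternative setting and every omission of 1 library left these 3 calls past the threshold.

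The reads behind the Neurog3 values were 329 and 219 in double-positive, 10 and 6 in beta and 1134 and 1067 in delta libraries. On reads summed over a group and scaled by depth, the double-positive level was 0.347 times the delta level, with an exact 95% interval of 0.315 to 0.381. It was 61.4 times the beta level (37.5 to 108). Intervals of this kind cover counting error only, not the spread between pools. Neurog3 shares 273 exonic bases with a gene on the opposite strand, Fam241b, listed as 2010107G23Rik, and the kit does not mark strand. That gene had 11.2 and 9.72 RPKM in double-positive, 8.27 and 7.08 RPKM in beta and 16.7 and 16.6 RPKM in delta libraries. Its level in beta cells was above that of Neurog3, so the few Neurog3 reads there cannot be assigned to a strand.

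Sox9, the progenitor and duct factor (chromosome 11, 112782224 to 112787760, plus strand), had 1.06 and 1.66 RPKM in double-positive, 0.0336 and 0 RPKM in beta and 2.96 and 3.93 RPKM in delta libraries. The groups did not overlap, and the order was that of Neurog3, at lower levels. The double-positive mean of 1.36 ± 0.426 RPKM was 39.5% of the delta mean of 3.45 ± 0.685 RPKM (SD, n = 2 each). The log2 fold change was -0.92 ± 0.18 in double-positive against delta cells (adjusted p = 0.021, limma), 1.20 ± 0.18 in double-positive against beta cells (adjusted p = 0.0023) and -2.12 ± 0.18 in beta against delta cells (adjusted p = 1.70e-04). The call against delta cells was lost without the male double-positive library (log2 fold change -0.73, adjusted p = 0.10) and without the female delta library (-0.76, adjusted p = 0.12).

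Only 3 Sox9 reads were counted in the male beta library and 0 in the female one. In the female beta library the floor of 3 reads lies at 0.0355 RPKM, and the exact 95% counting interval of 0 reads reaches 0.0436 RPKM. Double-positive libraries had 55 and 75 Sox9 reads and delta libraries 208 and 255. On summed reads, the double-positive level was 77.7 times the beta level, with an exact 95% counting interval of 26.0 to 382. The sum over 10 duct markers was 485 and 357 RPKM in double-positive, 618 and 417 RPKM in beta and 472 and 387 RPKM in delta libraries. Cftr, the chloride channel of duct cells, was at 0.134 and 0.130 RPKM in double-positive, 0 and 0.0063 RPKM in beta and 0.220 and 0.238 RPKM in delta libraries, and Cldn10 was at 0 in both double-positive libraries. Of the 8 tested duct markers, 1 was called higher in double-positive than in delta cells, 2 higher and 1 lower in double-positive than in beta cells, and 2 higher and 2 lower in beta than in delta cells. Their part in the Sox9 levels was not tested.

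**Figure D2:**
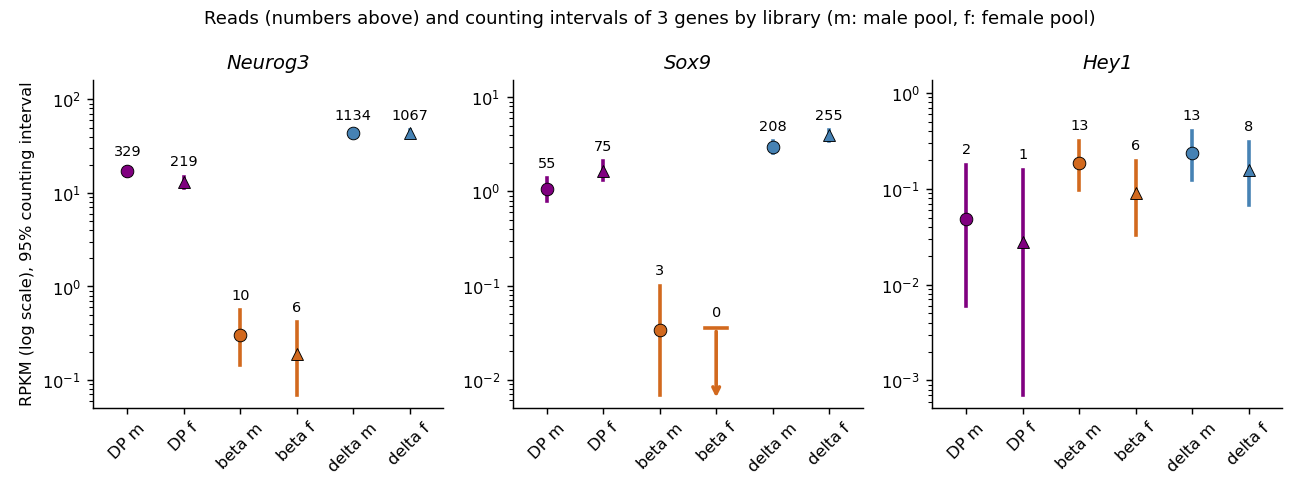
Neurog3, Sox9 and Hey1 by library (DP: double-positive) in RPKM on a log axis, with whole read counts above the points and 95% counting intervals as bars. The arrow starts at the floor of 3 reads, 0.0355 RPKM, for the beta library with 0 Sox9 reads, and the Hey1 intervals of all libraries rest on 13 reads or fewer.

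The receptors Notch1 and Notch2 differed in how far they separated the groups. Notch2 (chromosome 3, 98013527 to 98150361, plus strand) had 0.651 and 0.706 RPKM in double-positive, 0.189 and 0.326 RPKM in beta and 1.60 and 1.85 RPKM in delta libraries. None of the 3 groups overlapped, and the double-positive mean was 39.4% of the delta mean. The log2 fold change was -0.70 ± 0.14 in double-positive against delta cells (adjusted p = 0.022, limma), 0.42 ± 0.14 against beta cells (adjusted p = 0.043) and -1.12 ± 0.14 in beta against delta cells (adjusted p = 7.77e-04). Without any 1 of the 4 libraries compared, the call against delta cells was lost, with adjusted p between 0.061 and 0.11. The call against beta cells was lost likewise, with adjusted p between 0.062 and 0.17, and also without the male delta library (adjusted p = 0.053) and after scaling (log2 fold change 0.31, adjusted p = 0.099).

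Notch1 (chromosome 2, 26457903 to 26516663, minus strand) had 3.16 and 4.28 RPKM in double-positive, 2.10 and 3.93 RPKM in beta and 5.33 and 5.83 RPKM in delta libraries. Both delta libraries were above the other 4, which overlapped. In beta against delta cells the log2 fold change was -0.75 ± 0.23 (adjusted p = 0.030, limma). That call was lost after scaling (-0.42, adjusted p = 0.15) and without the male beta library (-0.42, adjusted p = 0.10), the male delta library (adjusted p = 0.088) or the female delta library (adjusted p = 0.12). The log2 fold change was -0.49 in double-positive against delta cells (adjusted p = 0.24) and 0.26 against beta cells (adjusted p = 0.38). Against beta cells it passed only when the female beta library was left out (0.60, adjusted p = 0.039). In every library Notch1 had a higher level per kilobase than Notch2. Notch1 shares 1068 exonic bases with 0610009E02Rik on the opposite strand, which had 1.37 and 1.63 RPKM in double-positive, 1.83 and 1.93 RPKM in beta and 1.80 and 1.91 RPKM in delta libraries.

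Among the 3 ligands, Dll4 and Jag1 lay in double-positive cells above beta and below delta cells, while the Dll1 libraries of all groups overlapped. Dll4, a Delta-like ligand best known from blood vessels (chromosome 2, 119325784 to 119335962, plus strand), had 2.24 and 2.26 RPKM in double-positive, 1.34 and 1.19 RPKM in beta and 3.04 and 2.73 RPKM in delta libraries. The groups did not overlap. It was called higher in double-positive than in beta cells (log2 fold change 0.52 ± 0.12, adjusted p = 0.012, limma) and lower in beta than in delta cells (-0.78 ± 0.12, adjusted p = 0.0019). Its log2 fold change in double-positive against delta cells was -0.26 (adjusted p = 0.23). The call against beta cells was lost after scaling (0.27, adjusted p = 0.10) and without the male double-positive library (adjusted p = 0.053). Dll4 shares 214 exonic bases with Gm14207 on the opposite strand, which was at 0.833 and 0.609 RPKM in double-positive, 0.220 and 0.0928 RPKM in beta and 0.839 and 0.847 RPKM in delta libraries. The sum of 9 endothelial markers, which bears on a ligand of vessels, was 5.40 and 6.71 RPKM in double-positive, 8.11 and 4.08 RPKM in beta and 6.83 and 8.49 RPKM in delta libraries, with Pecam1 at 0.484 RPKM or less in every library. Esam and Egfl7 were the 2 of these markers that could be tested. Both were called lower in beta than in delta cells, and 1 of them was called higher in double-positive than in beta cells, as Dll4 was. Esam, an adhesion molecule of vessels, had 4.26 and 4.35 RPKM in double-positive, 3.07 and 2.64 RPKM in beta and 4.83 and 5.49 RPKM in delta libraries. The untested markers of the list did not follow the Dll4 order. Pecam1, Cdh5, Kdr, Flt1, Plvap and Tie1 were highest in the male beta library, with Cdh5 at 0.919 and Plvap at 1.77 RPKM. Tek was highest in the male double-positive library. The part of these markers in the Dll4 levels was not tested.

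Jag1, the Jagged ligand (chromosome 2, 137081456 to 137116644, minus strand), had 0.876 and 0.756 RPKM in double-positive, 0.485 and 0.445 RPKM in beta and 1.51 and 1.62 RPKM in delta libraries, again with no overlap. It was called lower in beta than in delta cells, with a log2 fold change of -0.81 ± 0.13 (adjusted p = 0.0022, limma). Its log2 fold change of -0.50 ± 0.13 in double-positive against delta cells missed the threshold at an adjusted p of 0.054, and passed it with a filter of 0.5 RPKM (adjusted p = 0.044) or without the trend (adjusted p = 0.031). In double-positive against beta cells it was 0.31 (adjusted p = 0.087).

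Dll1, a Delta-like ligand expressed by Neurog3-positive progenitors in the embryo (chromosome 17, 15367354 to 15376872, minus strand), had 1.70 and 1.85 RPKM in double-positive, 1.52 and 2.24 RPKM in beta and 1.34 and 1.78 RPKM in delta libraries. Each group overlapped with the other two. Its log2 fold change was 0.12 ± 0.17 in double-positive against delta (adjusted p = 0.71, limma), -0.041 ± 0.17 in double-positive against beta (adjusted p = 0.85) and 0.16 ± 0.17 in beta against delta cells (adjusted p = 0.44). Dll1 shares 867 exonic bases with A930024N18Rik on the opposite strand, which had 1.05 and 0.905 RPKM in double-positive, 0.551 and 0.828 RPKM in beta and 0.432 and 0.693 RPKM in delta libraries. Reads of that stretch cannot be assigned to either gene.

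Hes6 was the 1 gene of the 9 tested that was called higher in beta than in delta cells. Hes6, a family member that in other settings antagonises Hes1 and is induced by proneural factors (chromosome 1, 91411483 to 91414038, minus strand), had 19.2 and 23.4 RPKM in double-positive, 39.6 and 36.4 RPKM in beta and 20.5 and 22.5 RPKM in delta libraries. Both beta libraries were above all others, and the double-positive libraries spanned the delta ones. The log2 fold change was -0.81 ± 0.13 in double-positive against beta cells (adjusted p = 0.0030, limma) and 0.79 ± 0.13 in beta against delta cells (adjusted p = 0.0024). It was -0.016 ± 0.13 in double-positive against delta cells (adjusted p = 0.96), where the mean was 99.2% of the delta mean. After scaling, the differences from beta cells were larger, at -1.20 (adjusted p = 0.0018) and 1.21 (adjusted p = 0.0010).

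Hes1, the repressor that Notch signalling induces (chromosome 16, 30064384 to 30067796, plus strand), had 3.45 and 5.13 RPKM in double-positive, 3.21 and 4.15 RPKM in beta and 6.37 and 5.76 RPKM in delta libraries. Double-positive and beta libraries overlapped, and both delta libraries were above them. The log2 fold change in beta against delta cells was -0.60 ± 0.19 (adjusted p = 0.029, limma). This call was lost after scaling (-0.25, adjusted p = 0.26) and without the male beta library (adjusted p = 0.13), the male delta library (adjusted p = 0.14) or the female delta library (adjusted p = 0.080). In double-positive cells it was -0.43 against delta (adjusted p = 0.20) and 0.17 against beta cells (adjusted p = 0.48).

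Hey1, another repressor downstream of Notch (chromosome 3, 8663359 to 8667256, minus strand), was not tested. It had 0.0489 and 0.0281 RPKM in double-positive, 0.185 and 0.0898 RPKM in beta and 0.235 and 0.156 RPKM in delta libraries, from 2 and 1, 13 and 6, and 13 and 8 reads. The double-positive libraries were the lowest, and beta and delta libraries overlapped. On summed reads the double-positive level was 0.199 times the delta level, with an exact 95% counting interval of 0.038 to 0.667.

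**Figure D3:**
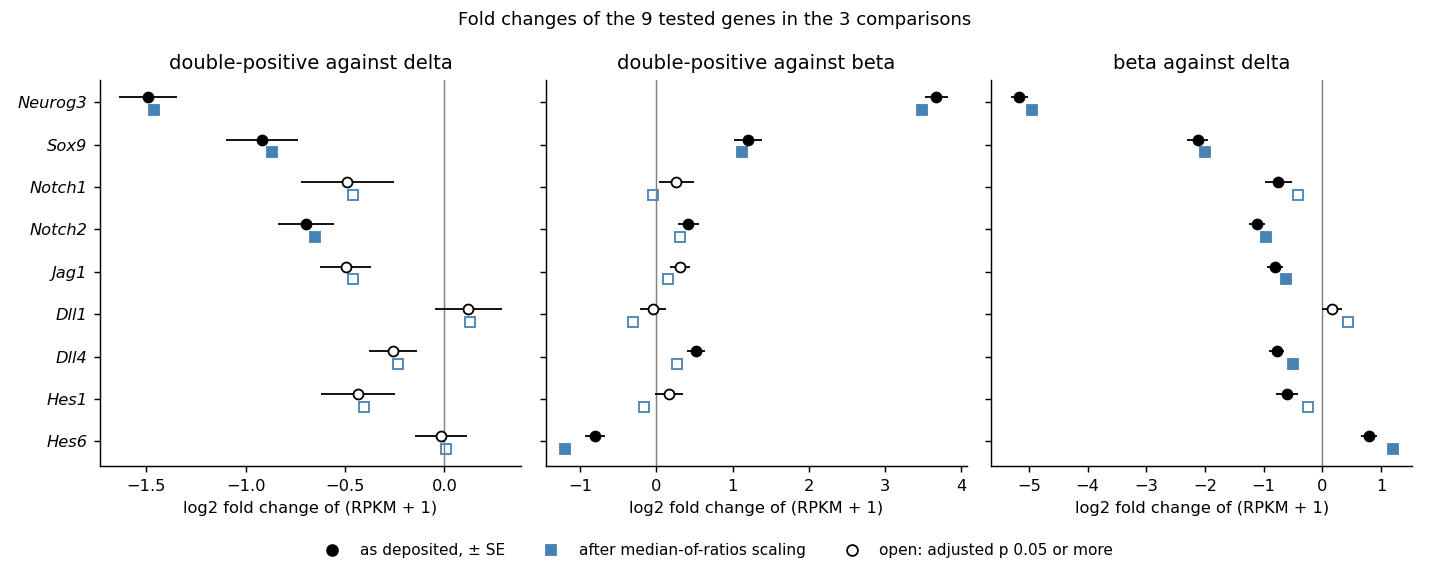
Log2 fold change of RPKM + 1 for the 9 tested genes in double-positive against delta, double-positive against beta and beta against delta cells, with circles and SE for the deposited values, squares after median-of-ratios scaling, and open symbols for an adjusted p of 0.05 or more. Neurog3 lies farthest from 0 in each panel, at -1.49, 3.68 and -5.17.

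Within a population the 10 genes spanned a wide range of levels per kilobase. In double-positive cells Hes6 (mean 21.3 RPKM) and Neurog3 (15.0) led, then Hes1 (4.29) and Notch1 (3.72), whose libraries overlapped, then Dll4 (2.25), Dll1 (1.78), Sox9 (1.36), Jag1 (0.816), Notch2 (0.679) and Hey1 (0.0385), none of which overlapped with the next. In beta cells Hes6 (38.0) led, and the libraries of Hes1 (3.68), Notch1 (3.01) and Dll1 (1.88) each overlapped with the next in that order. Dll4 (1.26) and Jag1 (0.465) followed, Notch2 (0.258) and Neurog3 (0.246) overlapped, and Hey1 (0.137) and Sox9 (0.0168) came last. In delta cells Neurog3 (43.8) stood above Hes6 (21.5). Hes1 (6.06) overlapped with Notch1 (5.58) and Sox9 (3.45) with Dll4 (2.89), while Notch2 (1.72), Jag1 (1.56) and Dll1 (1.56) overlapped among themselves above Hey1 (0.195). Neurog3 thus held the second rank in double-positive, the eighth in beta and the first in delta cells.

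The level in double-positive cells, as a share of the delta level, ran from 19.7% for Hey1, which rests on 3 reads in double-positive cells, to 114% for Dll1. It was 34.4% for Neurog3, 39.5% for Sox9, 39.4% for Notch2, 52.2% for Jag1, 66.6% for Notch1, 70.8% for Hes1, 77.9% for Dll4 and 99.2% for Hes6. The 5 delta markers fixed for the check of identity had shares of 23.8% for Sst, 30.8% for Rbp4, 33.8% for Ghsr, 36.0% for Hhex and 36.3% for Ptprz1. All 6 alpha markers and both PP markers were also called lower in double-positive than in delta cells, and their part in the lower levels of Neurog3, Sox9 and Notch2 was not tested.

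Around the 10 genes, 9 lists of the pathway and its endocrine setting were counted. Their counts are descriptions, to be read against the shares over all tested genes, which for double-positive against beta cells were 42.5% higher and 8.46% lower. Among other Notch ligands and receptors, 4 of 9 were tested, and Jag2, a second Jagged ligand, stood opposite to Jag1. Jag2 had 5.39 and 5.66 RPKM in double-positive, 7.23 and 7.27 RPKM in beta and 1.35 and 1.43 RPKM in delta libraries. The delta libraries were far below the others. It was higher in double-positive than in delta cells (log2 fold change 1.45 ± 0.11, adjusted p = 8.5e-04, limma) and higher in beta than in delta cells (1.79 ± 0.11, adjusted p = 4.55e-05). Dlk1, a Delta-like protein that is known as a non-canonical ligand, had 7.49 and 9.57 RPKM in double-positive, 0.582 and 1.69 RPKM in beta and 18.2 and 21.7 RPKM in delta libraries. It was higher in double-positive than in beta cells (2.20 ± 0.26, adjusted p = 9.3e-04) and lower in beta than in delta cells (-3.34 ± 0.26, adjusted p = 1.16e-04). Its fold change of -1.14 in double-positive against delta cells was called (adjusted p = 0.033) but lost without any 1 of the 4 libraries compared, with adjusted p between 0.093 and 0.19. Notch3 and Notch4 were at or below 0.277 RPKM in every library and Dll3 at or below 0.0163 RPKM.

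The machinery that cleaves, modifies and sorts Notch proteins gave counts to be read against the 12.7% of all tested genes called in double-positive against delta cells. Of 9 tested genes for cleavage by Adam proteases and gamma-secretase, limma called 0 in double-positive against delta cells, 1 with the pool as a block, and 1 passed an unadjusted p of 0.05. Against beta cells 3 were called, all higher in double-positive cells, which after scaling became 1 higher and 3 lower. Adam10, the protease that makes the first ligand-dependent cut, was at 26.4 ± 3.70 RPKM in double-positive, 14.2 ± 2.46 in beta and 26.2 ± 0.546 in delta cells (SD, n = 2 each). In glycosylation and ligand endocytosis, 4 of 8 were higher and 1 lower in double-positive than in beta cells, or 2 and 2 after scaling, and 1 was called in double-positive against delta cells. This was Neurl1a, a ubiquitin ligase of the Neuralized family, which had 8.12 and 8.09 RPKM in double-positive, 3.48 and 2.84 RPKM in beta and 21.9 and 25.0 RPKM in delta libraries. The groups did not overlap. Its log2 fold change was -1.42 ± 0.13 in double-positive against delta (adjusted p = 0.0015), 1.14 ± 0.13 in double-positive against beta (adjusted p = 8.2e-04) and -2.56 ± 0.13 in beta against delta cells (adjusted p = 2.19e-05). Mib1, the ligase that acts on ligands in the mouse, was at 24.1 ± 3.68 RPKM in double-positive, 10.1 ± 2.90 in beta and 25.4 ± 1.82 in delta cells. It was called against beta cells (1.20 ± 0.20, adjusted p = 0.0033) and not against delta cells (-0.081, adjusted p = 0.84).

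Among 11 tested inhibitors and turnover genes, 1 was called lower in double-positive than in delta cells. This was Dtx1, of the Deltex family (-0.58, adjusted p = 0.030), whose call was lost without any 1 of the 4 libraries compared, with adjusted p between 0.069 and 0.16. Against beta cells, 8 were called, all higher in double-positive cells, and scaling reduced this to 3 higher and 2 lower. Dtx3, of the same family, was at 47.5 ± 4.68 RPKM in double-positive, 20.7 ± 1.05 in beta and 39.0 ± 1.34 in delta cells and rose by 1.16 ± 0.12 on the log2 scale in double-positive against beta cells (adjusted p = 5.8e-04, limma). In the nuclear complex and its corepressors, 3 of 15 were called in double-positive against delta cells, all lower: Tle4, Tle1 and Maml2. Each of these 3 calls was lost without any 1 of the 4 libraries compared. Against beta cells 8 were higher and 2 lower, or 5 and 3 after scaling. Maml2, a coactivator of the Mastermind family, was at 1.77 ± 0.0912 RPKM in double-positive, 0.225 ± 0.00842 in beta and 3.46 ± 0.270 in delta cells. Tle4, a Groucho-type corepressor, was at 4.30 ± 0.123 RPKM in double-positive, 1.34 ± 0.203 in beta and 7.74 ± 0.516 in delta cells. Rbpj itself was called in none of the 3 comparisons, with 1.63 and 1.22 RPKM in double-positive, 1.03 and 1.05 RPKM in beta and 1.71 and 1.48 RPKM in delta libraries. None of the 7 other Hes and Hey genes passed the filter. Hes7 was highest among them, at 0.326 RPKM or less, and Hes2, Hes5 and Helt were listed at 0 in every library.

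Of 8 tested partners and inhibitors of basic helix-loop-helix factors, 7 were called higher in double-positive than in beta cells, before and after scaling, where 42.5% of all tested genes were called higher before scaling. Their median log2 fold change was 1.15, or 0.93 after scaling, against 0.32 and -0.0017 over all tested genes. Id2, an inhibitor that binds such factors without touching DNA, had 139 and 175 RPKM in double-positive, 35.9 and 43.3 RPKM in beta and 134 and 171 RPKM in delta libraries. Beta cells were far below the other groups, which overlapped. Tcf4 and Tcf12, which encode E proteins that pair with Neurog3-type factors, were higher in double-positive than in beta cells by 1.05 and 0.79 on the log2 scale (adjusted p = 0.0013 and 0.0059, limma). Id1, another inhibitor of the Id family, was the 1 gene of the list called lower in double-positive than in delta cells (-0.92, adjusted p = 0.046), and lost that call in 11 of the 14 alternatives run, with adjusted p between 0.056 and 0.21. Neurog1, Neurog2, Neurod2 and Atoh1, the nearest relatives of Neurog3 on the list, were listed at 0 in every library.

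Genes known as Neurog3 targets or endocrine differentiation factors did not move as one in double-positive against delta cells: of 16 tested, 2 were higher and 3 lower, with a median of -0.042. The higher pair was Neurod1 and Mlxipl, singled out here after their values were seen. Neurod1, a direct Neurog3 target that maintains islet cells, had 69.1 and 78.9 RPKM in double-positive, 39.9 and 46.6 RPKM in beta and 43.3 and 38.4 RPKM in delta libraries. Double-positive libraries were above all others, while Neurog3 was lower there than in delta cells. Its log2 fold change against delta cells was 0.84 ± 0.13 (adjusted p = 0.0098, limma), and this call was lost without the female double-positive library (adjusted p = 0.079) and without the female delta library (adjusted p = 0.095). Against beta cells it was 0.76 ± 0.13 (adjusted p = 0.0040). Mlxipl, which encodes the glucose-responsive factor ChREBP, had 71.9 and 85.8 RPKM in double-positive, 19.8 and 20.2 RPKM in beta and 43.2 and 35.8 RPKM in delta libraries. Its call against delta cells (0.98 ± 0.14, adjusted p = 0.0068) was lost without the same libraries, at adjusted p of 0.054 and 0.063.

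The genes of that list called lower in double-positive than in delta cells included Isl1 and Amotl2. Isl1, a factor of all islet cell types, was at 78.8 ± 0.393 RPKM in double-positive, 21.3 ± 1.86 in beta and 120 ± 2.30 in delta cells. Its call against delta cells (-0.60, adjusted p = 0.015, limma) was lost without any 1 of the 4 libraries compared, with adjusted p between 0.086 and 0.12. Against beta cells 11 of the 16 were higher and 1 lower, or 11 and 4 after scaling. Rfx6, which acts downstream of Neurog3, had the largest rise among the named genes of this list, 2.02 ± 0.14 (adjusted p = 2.2e-04), with 68.5 and 62.8 RPKM in double-positive, 14.1 and 16.9 RPKM in beta and 68.3 and 57.0 RPKM in delta libraries. Pax4, a beta and delta fate factor of the embryo, was at 0.0408 RPKM in 1 delta library and listed at 0 in the other 5.

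Pancreas progenitor and duct factors were tested in 9 of 18 cases, and all 4 called in double-positive against delta cells were lower: Sox11, Nr5a2, Gata6 and Prox1. Sox11, a factor of immature cells, had 0.480 and 0.199 RPKM in double-positive, 0 and 0.0118 RPKM in beta and 1.74 and 1.78 RPKM in delta libraries, and its log2 fold change against delta cells was -1.05 ± 0.16 (adjusted p = 0.0078, limma). Sox11 reached the filter of 1 RPKM in the delta libraries alone, and Nr5a2 outside them only in the male double-positive library. Both were thus tested only because they were high in delta cells, which partly fixes the direction of this count. Gata6 was at 8.01 ± 1.26 RPKM in double-positive, 1.85 ± 0.364 in beta and 14.9 ± 1.24 in delta cells, and Prox1 at 20.7 ± 1.36, 6.35 ± 2.03 and 36.6 ± 0.192 RPKM in the same order. The calls of Gata6, Prox1 and Nr5a2 against delta cells were lost without any 1 of the 4 libraries compared, with adjusted p between 0.0505 and 0.19. Against beta cells all 5 called were higher in double-positive cells, or 3 higher and 1 lower after scaling. The 45 named genes of all lists were picked from genes called in some comparison. A count of calls among them thus cannot be set against the 12.7% of all tested genes called in double-positive against delta cells. Over these lists, 18 named genes were called in double-positive against delta cells, and 5 of them, Jag2, Neurl1a and Sox11 included, passed under every alternative run.

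Between beta and delta cells, 46.3% of all tested genes were called lower and 11.7% higher in beta cells, with a median of -0.36, and the list counts stand against these shares. Other Notch ligands and receptors had 2 higher and 1 lower of 4 tested, with a median of 0.13. Cleavage genes had 1 higher and 3 lower of 9, which after scaling became 2 higher and 1 lower, and glycosylation and endocytosis genes 1 higher and 4 lower of 8, or 2 and 3. Lower in beta cells were 8 of 11 tested inhibitors and turnover genes, 10 of 15 of the nuclear complex and corepressors, 11 of 16 Neurog3 targets and endocrine factors, and 6 of 9 progenitor and duct factors. Higher in beta cells were 2 of each of the first 3 of these lists. After scaling the lower counts became 4, 7, 11 and 5, and the higher ones 2, 3 and 4 for the first 3. All 5 called partners and inhibitors of basic helix-loop-helix factors were lower in beta cells, while after scaling 1 was higher and 5 were lower. Id2 was among them, with a log2 fold change of -1.92 ± 0.18 (adjusted p = 2.5e-04, limma).

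**Figure D4:**
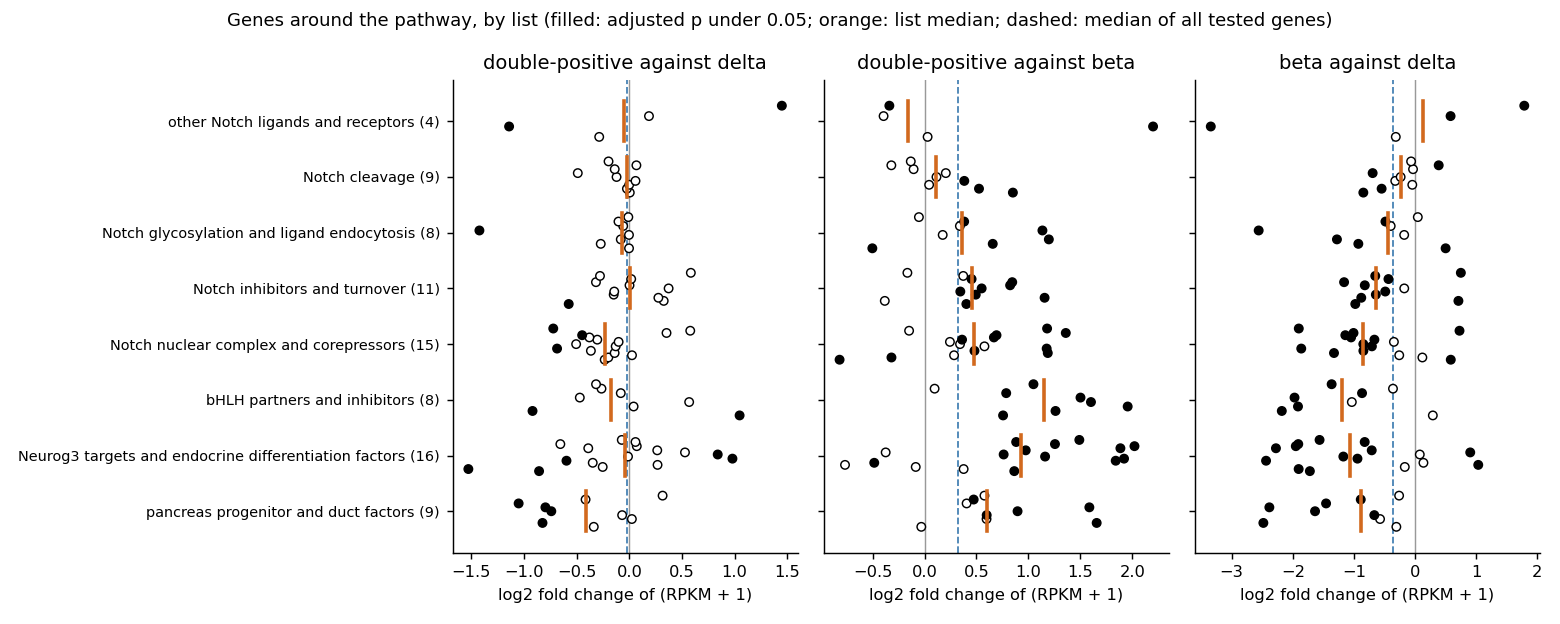
Log2 fold change of RPKM + 1 for each tested gene of 8 lists around the pathway, in double-positive against delta, double-positive against beta and beta against delta cells, with filled points for an adjusted p under 0.05, orange bars at list medians and a dashed line at the median of all tested genes. In the comparison with beta cells the partners and inhibitors of basic helix-loop-helix factors have a median of 1.15, to the right of the dashed line at 0.32.

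The profiles of Neurog3, Sox9 and Notch2 over the 6 libraries were matched with those of the tested genes by the distance between mean-centred log2(RPKM + 1) values. Predicted genes and symbols of the Gm, Rik and LOC kind were left out of this match. The 4 nearest to Neurog3 were Gpm6a (distance 0.252), Ncam2 (0.315), Bmp3 (0.395) and Ehf (0.442). Gpm6a, a neuronal membrane glycoprotein gene, averaged 13.8 RPKM in double-positive, 0.0872 in beta and 40.0 in delta cells. Ncam2, a neural adhesion molecule gene, averaged 15.0 RPKM in double-positive, 0.0505 in beta and 39.3 in delta cells. Both were near the Neurog3 level in double-positive and delta cells and below it in beta cells. The nearest to Sox9 were Efcab10 (0.137), Trp53i11 (0.160), Syt6 (0.175) and Crhr2 (0.214), of which Syt6 averaged 1.21 RPKM in double-positive, 0.00419 in beta and 3.13 in delta cells. The nearest to Notch2 were Cpq (0.0994), Tmem246 (0.0995), Olfml3 (0.115) and Ncald (0.118), of which Olfml3 averaged 0.658 RPKM in double-positive, 0.272 in beta and 1.81 in delta cells.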

How the data were processed

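Per the submitters' processing notes, STAR 2.5, featureCounts and edgeR 3.14.0 were used on GRCm38.p4, and the authors deposited 1 table of RPKM values for 46959 symbols in 6 libraries. The sources used here do not give how strand was counted. Leaving out 27 symbols that read as dates, and with no count model because the values are RPKM, the 13022 genes that reached 1 RPKM in 2 or more libraries were tested on log2(RPKM + 1) with limma 3.58.1 in R 4.3.3 (trend, 1 fit over 6 libraries, 2-sided, Benjamini-Hochberg, adjusted p under 0.05), which was tested on simulated data. Reads were recovered from the RPKM with exonic lengths of GENCODE M21, which also gave coordinates and overlaps, and 83.3% to 86.4% of values under 50 reads lay within 0.01 of a whole number. For Neurog3 the length that gave whole reads was 1540 bases, against 1674 in that annotation. For every other gene of the 10 the annotated length served.

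The 10 genes and the lists were chosen with earlier results of these data known. List genes are named by the rule of up to 6 a list by adjusted p, plus genes needed as background. A few list genes are counted but not reported by name here. Per the series' design text, all populations were sorted from shared islets, and with the stated sex this pairs the libraries by pool. The sample titles carry an unexplained token that differs between the groups, so the pairing rests on that text. The correlation of their deviations was 0.47 between double-positive and beta, 0.36 between double-positive and delta and 0.24 between beta and delta libraries. Alternatives were pseudocounts of 0.1 and 0.5, no filter, a filter of 0.5 RPKM, median-of-ratios scaling, the pool as a block, limma without the trend, a fit of the 4 libraries compared, and leaving out each library. Promoter sequences are from RefSeq on GRCm38.p6. No genome of another build was used.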

Additional observations from a re-analysis of the deposited data

Results flagged for a closer look

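For 2 of the 10 genes the male and the female pool differed in opposite directions. In double-positive against beta cells, Dll1 differed by 0.10 on the log2 scale in the male pool and by -0.18 in the female pool. In double-positive against delta cells, Hes6 differed by -0.087 in the male pool and by 0.056 in the female pool. With 1 library of each population per pool, the difference between the pools was not tested.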

How the results depend on the processing

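With 2 libraries a group, calls near the threshold rest on single libraries. The number of the 9 tested genes called in double-positive against delta cells was 3, became 1 with a pseudocount of 0.1, and ran from 1 to 3 when 1 library was left out. Over all genes this count ran from 522 to 2055 and, in double-positive against beta cells, from 4132 to 7086. In that comparison the count of the 9 was 5, became 3 after median-of-ratios scaling, and ran from 3 to 5. In beta against delta cells the count of the 9 was 8, and became 6 after median-of-ratios scaling and 6 without a filter. With a pseudocount of 0.1 the calls of Sox9 and Notch2 in double-positive against delta cells were lost (adjusted p = 0.074 and 0.067). Without a filter Sox9 lost that call too (0.078), Notch2 its call against beta cells (0.055), and Notch1 and Hes1 theirs in beta against delta cells (0.093 and 0.084). Scaling reversed 3 fold changes of the 10 genes that were not called, Hes6 in double-positive against delta (0.0079), and Notch1 (-0.044) and Hes1 (-0.16) in double-positive against beta cells. It also reversed the fold change of Snw1, of the nuclear complex list, in double-positive against beta cells (-0.022). Snw1 had been called higher there before scaling (0.36, adjusted p = 0.030, limma). Leaving out 1 library reversed further ones, none of them called: Dll1 (-0.0050 to 0.24) and Hes6 (-0.15 to 0.12) in double-positive against delta, Notch1 (-0.074 to 0.60), Dll1 (-0.22 to 0.14) and Hes1 (-0.067 to 0.40) in double-positive against beta, and Dll1 (-0.021 to 0.34) in beta against delta cells. The cause of these changes was not tested. The pool as a replicate block left 3, 5 and 8 of the 9 genes called in the 3 comparisons and changed no member's call. Depth limits Hey1 in every library, and Neurog3 and Sox9 in beta cells.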
